A study of Canis lupus familiaris with 39 samples.

Results

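Claudins are the membrane proteins that form the strands of tight junctions, the contacts that seal neighbouring cells of an epithelium or endothelium to one another. Some claudins tighten the seal and others form pores that let chosen ions or water pass between cells, so the set of claudins in a cell layer helps to fix what that layer lets through. CLDN11 also forms the junctions between the wraps of myelin that oligodendrocytes make in the central nervous system. The expression of 10 claudin genes, CLDN1, CLDN2, CLDN3, CLDN4, CLDN5, CLDN7, CLDN10, CLDN11, CLDN16 and CLDN18, was described here across 10 normal canine organs. Every probeset whose only annotated gene symbol was one of these names was taken, which gave 14 of the 42860 probesets on the Affymetrix Canine 2.0 array and 10 of the 15115 gene symbols that stood alone on a probeset. CLDN10 had 3 probesets, CLDN5 and CLDN18 had 2 each, and the other 7 genes had 1 each. Where a gene had several, the one with the highest average level stood for it. A probeset whose name ends in _s_at can match more than 1 transcript, which applies to the probesets of CLDN2 and CLDN3 and to 1 probeset each of CLDN5, CLDN10 and CLDN18.

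The arrays measured total RNA from pathologically normal brain (cerebrum), heart, jejunum, kidney, liver, lung, peripheral lymph node, pancreas, skeletal muscle and spleen. There were 4 arrays for each organ and 3 for pancreas, 39 in all. The organs came from 4 dogs of both sexes, beagles and mixed breed animals that ranged from young to adult, and the organ was the only factor compared. Values are on the log2 scale after robust multi-array averaging (RMA), on which 1 unit is a doubling of signal and the median of an array lay between 3.95 and 4.11. Whole pieces of organ were used, so fewer cells of a type and less RNA per cell cannot be told apart. Probes differ in how strongly they bind, so values are compared only within a probeset and never between genes.

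Marker genes largely followed the organ labels. Lists for neurons (6 of 6 genes), enterocytes (9 of 9), hepatocytes (6 of 6), alveolar epithelium (6 of 6) and pancreatic acinar cells (5 of 5) were higher in brain, jejunum, liver, lung and pancreas. So were proximal tubule genes in kidney (6 of 7) and striated muscle genes in heart and skeletal muscle (5 of 6 each). Lymphocyte genes were higher in lymph node (8 of 8) and spleen (6 of 8). Of all probesets, 5.38% (spleen) to 13.4% (pancreas) were called higher in an organ. The nearest array of each of the 39 arrays was of its own organ. Of the 5 measured acinar genes, 2 were also called higher in skeletal muscle. Acinar genes were nevertheless raised in skeletal muscle replicates 1, 3 and 4 (mean of the list 7.06, 8.09 and 9.5), brain replicate 3 (6.09), lymph node replicate 4 (6) and liver replicate 4 (5.52), against at least 13.33 in pancreas, and hepatocyte genes were raised in heart replicate 2 (7.84) and lung replicates 1 and 3 (7.97 and 8.17). With the arrays of the acinar set left out, 11 of the 14 claudin probesets differed among organs by limma's F test and 21 contrasts of an organ with the others were called higher, and without those of the hepatocyte set these counts were 11 and 21, against 12 and 21 over all arrays. Of 72 single contrasts and organ leads of the claudin probesets, 7 lost their call without the first set of arrays and 3 without the second, all of them contrasts in which an organ was lower than the others. Those 7 were the skeletal muscle contrasts of CLDN3, CLDN7, CLDN18 (both probesets) and the second CLDN10 probeset, where skeletal muscle kept 1 array whose spread was taken to be like that of the other organs, and the liver contrasts of CLDN7 and the second CLDN18 probeset. The 3 were those of CLDN3 in heart and spleen and of the second CLDN10 probeset in lung. Brain replicate 3 also had a striated muscle list of 7.44, against 4.28 to 5.39 in the other brain arrays. Heart replicate 1 had UMOD at 7.29 and SFTPC at 7.34, a kidney and a lung gene, which in the other heart arrays reached at most 4.02 and 4.73. It also had ALB, a liver gene, at 7.91. UMOD was 6.85 in spleen replicate 1, against at most 4.2 in the other spleen arrays. ALB was 7.58 in kidney replicate 2, against at most 4.83 in the other kidney arrays. Each of the 39 arrays was left out in turn, and of the 72 results none lost its call without brain replicate 3 or heart replicate 1 except that of CLDN3 in heart without heart replicate 1. Without spleen replicate 1 the call of CLDN3 in spleen was lost, and without kidney replicate 2 that of CLDN3 in heart.

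Of the 14 claudin probesets, 12 differed among the 10 organs by limma's moderated F test at a Benjamini-Hochberg false discovery rate (FDR) of 0.001, and 9 of the 10 genes had such a probeset, beside 54.6% of all probesets. CLDN1 was the gene that was not called. Each organ was then set against the mean of the other 9. Higher values in at least 1 organ were called for 12 of 14 probesets (9 genes), beside 56.7% of all probesets. More than a 10-fold excess, termed enriched, was reached by 7 of 14 probesets (5 genes), beside 7.58% of all probesets. The term selective was kept for an enriched probeset that was at most 3-fold above the other organs in every other organ's own contrast, and 3 of 14 claudin probesets met it, beside 3.56% of all probesets. These were the probeset of CLDN3, for jejunum, and both probesets of CLDN18, for lung. In 7 of 14 probesets every array of 1 organ lay above every array of all other organs, beside 16.6%, and in 7 of 14 the highest organ was called above the organ ranked second, beside 13.5%.

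Kidney and lung each had 5 of 14 probesets called higher, beside 7.41% of all probesets in kidney and 7.26% in lung. The genes were CLDN2, CLDN7, CLDN10 and CLDN16 in kidney and CLDN5, CLDN7 and CLDN18 in lung. Jejunum had 3 of 14 higher (CLDN3, CLDN4 and CLDN7), beside 6.12%. Pancreas and heart had 2 each, both of CLDN10, beside 13.4% and 7.47%. Spleen had 2, both of CLDN5, beside 5.38%, while brain had CLDN11 alone (11.2%) and liver CLDN10 alone (6.72%). In lymph node and skeletal muscle 0 of 14 claudin probesets were called higher by limma, beside 9.95% and 7.06% of all probesets, and the count was also 0 at an unadjusted p of 0.05 and with ordinary variances in both organs. Lower values in at least 1 organ were called for 4 of the 10 genes, CLDN3, CLDN7, CLDN10 and CLDN18. The probesets were those of CLDN3 and CLDN7, the first and second of CLDN10 and both of CLDN18, out of 14. Among all probesets the share was 25.8%, which counts probesets and not genes. The organ in which such a gene is high is part of the mean that the other organs are set against, so these 35 lower calls among 140 contrasts partly restate the 21 higher ones.

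**Figure D1:**
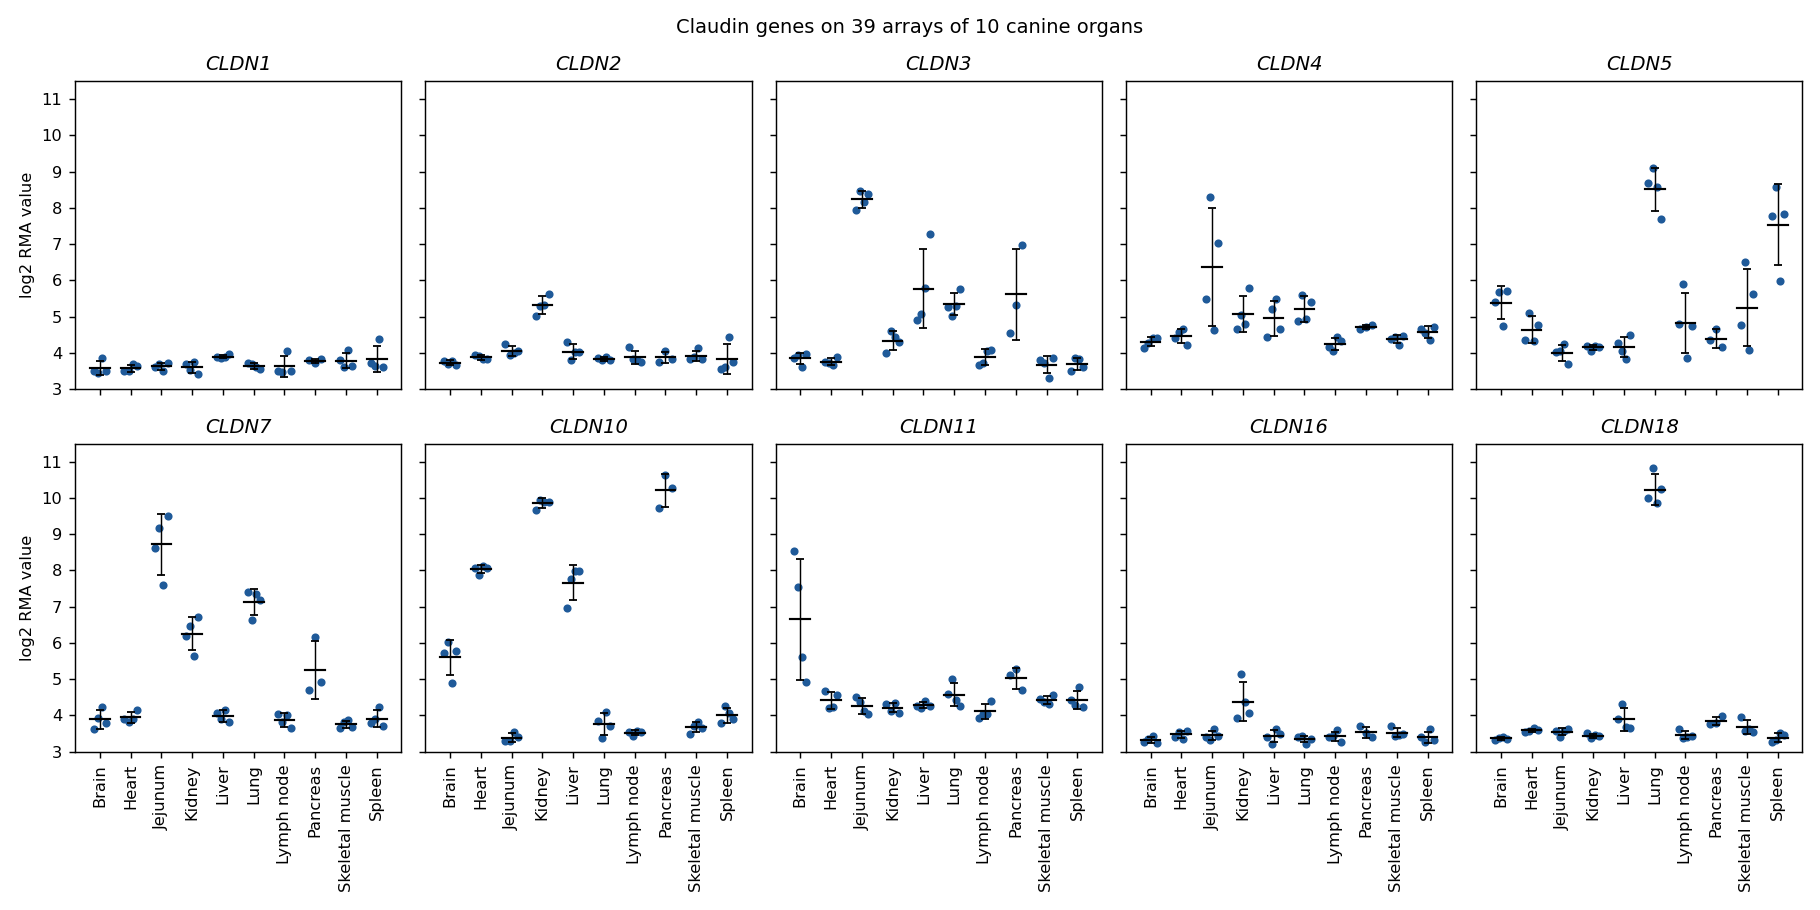
Log2 RMA value (vertical axis) of the probeset that stood for each claudin gene on each array, by organ (horizontal axis). Points are arrays, horizontal bars are organ means and whiskers are 1 SD (n = 4, pancreas n = 3); CLDN18 is high in lung alone, CLDN10 in pancreas, kidney, heart and liver, and CLDN1 stays between 3.43 and 4.37 on all 39 arrays.

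The claudins of surface epithelia were highest in jejunum. CLDN3, CLDN4 and CLDN7 are found in the tight junctions of many simple epithelia, and CLDN7 also lies along the sides of intestinal epithelial cells below the junction. CLDN3 had 7.93, 8.46, 8.16 and 8.39 in the 4 jejunum arrays, where every array was above all 35 others, whose values lay between 3.32 and 7.29. The jejunum mean of 8.23 ± 0.24 (SD, n = 4) was 13.9-fold above the mean of the other 9 organs (4.43; log2 difference 3.80, limma, adjusted p = 3.59e-13). Liver, pancreas and lung followed with overlapping values. CLDN3 had 4.91, 5.08, 5.8 and 7.29 in liver, 4.54, 5.32 and 6.98 in pancreas, and 5.27, 5.03, 5.29 and 5.76 in lung. Jejunum exceeded liver by 2.47 (95% interval 1.74 to 3.19, limma adjusted p = 1.73e-06). Liver (2.01), pancreas (1.85) and lung (1.58) in turn exceeded heart (limma, adjusted p = 3.42e-05, 2.49e-04 and 8.09e-04), though none of these 3 organs was called against the mean of the others. CLDN3 was uneven among the liver arrays, with replicate 4 highest. On the 4 liver arrays the mean of 6 duct epithelium genes was 5.16, 4.73, 4.81 and 4.63 and that of the acinar genes was 4.12, 3.86, 4.84 and 5.52, and the part of either in the CLDN3 value was not tested. CLDN3 was called lower in skeletal muscle (−1.26), spleen (−1.24) and heart (−1.17). The heart call was lost in 26 of 39 fits that each left out 1 array, and those of skeletal muscle and spleen were lost in 4 fits each, whichever array of that organ was left out.

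CLDN7 showed a graded order of organs. It had 8.61, 9.16, 7.59 and 9.5 in jejunum, 7.39, 6.62, 7.34 and 7.18 in lung, 6.19, 6.47, 5.65 and 6.71 in kidney, and 4.69, 6.17 and 4.92 in pancreas. All jejunum arrays lay above all lung arrays, whereas lung and kidney overlapped, as did kidney and pancreas. The means of the other 6 organs lay between 3.75 and 3.98. Against the mean of the other organs, CLDN7 was 16.5-fold higher in jejunum (limma, adjusted p = 2.52e-16), 4.89-fold in lung (adjusted p = 4.50e-10) and 2.49-fold in kidney (adjusted p = 1.20e-05). Jejunum exceeded lung by 1.58 (95% interval 1.0 to 2.16, limma adjusted p = 7.50e-05). The next steps down did not pass the threshold, with lung over kidney at 0.88 (limma, adjusted p = 0.0248), kidney over pancreas at 0.99 (0.00985) and pancreas over liver at 1.28 (0.00149). Pancreas was called above lymph node (1.39, limma adjusted p = 5.03e-04) and skeletal muscle (1.51; 2.62e-04). With each array rescaled so that the median of 13 housekeeping genes was the same, the kidney excess was 0.13 (limma, adjusted p = 0.621) and that of jejunum over lung was 0.64 (0.088). These housekeeping genes themselves differed by organ, as 12 of the 13 were called by the F test, beside 54.6% of all probesets.

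CLDN4 was the least even of these genes. It had 5.48, 8.29, 4.64 and 7.04 in jejunum (6.36 ± 1.62, SD, n = 4), against 4.66 as the mean of the other 9 organs, where single arrays lay between 4.06 and 5.78. Replicates 2 and 4 of jejunum were above every other array, while replicates 1 and 3 lay within the range of the other organs. The difference of 1.71 (3.26-fold) passed the threshold (limma, adjusted p = 5.06e-05), and without jejunum replicate 2 (1.06, limma adjusted p = 0.0022) or replicate 4 (1.48, 0.00166) it no longer did. With the arrays set to an equal housekeeping median it was 1.28 (limma, adjusted p = 0.00149). Lung was second with 4.88, 5.6, 4.94 and 5.41, and jejunum exceeded it by 1.16 (95% interval 0.33 to 1.98, limma adjusted p = 0.0414), a difference that lay between 0.51 without jejunum replicate 2 and 1.73 without jejunum replicate 3 and was called only without replicate 3. Jejunum replicates 2 and 4 were also above replicates 1 and 3 for CLDN3, for VIL1, the brush border protein villin (10.62 and 10.47, against 10.04 and 9.66), and for the mean of the simple epithelium genes (8.13 and 8.38, against 7.54 and 7.56). CLDN7 followed the same division of the 4 arrays, as did OCLN, the strand protein occludin (6.92, 8.36, 6.88 and 7.83). The tight junction scaffold genes CGN (9.64, 9.49, 10.01 and 9.87) and TJP3 (6.73, 6.38, 6.65 and 6.66) did not, with replicate 2 lowest. The part of epithelial content in the CLDN4 values was not tested. Across all 39 arrays Pearson's r was 0.758 between CLDN4 and CLDN7, 0.748 between CLDN3 and CLDN7 and 0.694 between CLDN3 and CLDN4, given as a description because arrays of 1 organ share that organ. CLDN3 and CLDN4 lie next to each other with no protein-coding gene between them in the RefSeq annotation of the UU_Cfam_GSD_1.0 assembly.

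**Figure D2:**
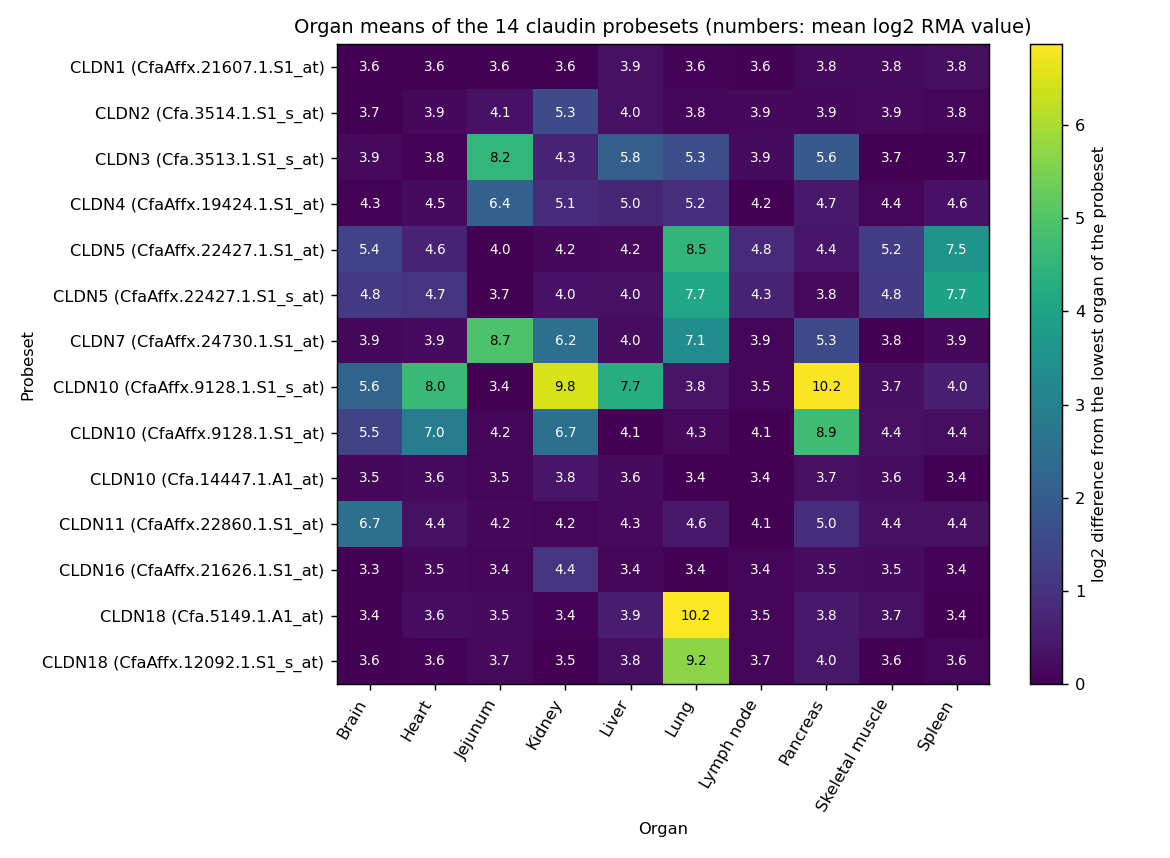
Mean log2 RMA value (printed in each cell) of the 14 claudin probesets (rows) in the 10 organs (columns). Colour gives the log2 difference from the organ with the lowest mean of that probeset, so rows can be compared by shape but not by level. The 2 probesets of CLDN5 and of CLDN18 share their highest organs. The first and second CLDN10 probesets are both highest in pancreas but differ in liver, and the third, not called by the F test, is highest in kidney.

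CLDN18 had the largest fold of 1 organ over the mean of the others among the 10 claudin genes. The range of its organ means was 6.86, beside 6.82 for CLDN10. In human and mouse, CLDN18 has a lung form made by alveolar epithelial cells and a stomach form. CLDN18 had 9.99, 10.82, 9.86 and 10.24 in lung, and the 35 arrays of the other organs lay between 3.26 and 4.32. No array of another organ came near those of lung. The lung mean of 10.23 ± 0.42 (SD, n = 4) was 101-fold above the mean of the other 9 organs (3.57; log2 difference 6.65, SE 0.10, limma adjusted p = 7.63e-31), and liver was lower than lung by 6.34 (95% interval 6.06 to 6.61). The means of the other 9 organs, 3.36 to 3.89, lay below the array medians, so the fold is set against low signal, and liver and pancreas were not told apart (liver minus pancreas 0.05, limma adjusted p = 0.813). The second CLDN18 probeset read 9.06, 9.44, 8.85 and 9.5 in lung (9.21 ± 0.31, SD, n = 4), against a mean of 3.67 elsewhere (46.4-fold, limma adjusted p = 1.51e-29). Over the 39 arrays the 2 CLDN18 probesets had a Pearson r of 0.995. The genes with the most similar pattern were AGER (r = 0.992), a receptor abundant in type I alveolar cells, SFTPC (0.988), which encodes surfactant protein C, and CHI3L1 (0.988), each over the same 39 arrays. The alveolar list averaged 9.11, 9.25, 8.96 and 9.92 in the 4 lung arrays, and its highest array in any other organ was a kidney array at 5.27.

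CLDN5, the main claudin of endothelial cells and a component of the blood-brain barrier, was highest in lung and spleen. It had 8.68, 9.1, 8.57 and 7.69 in lung and 7.77, 8.59, 5.98 and 7.82 in spleen. Lung and spleen arrays overlapped, with spleen replicate 3 well below the other spleen arrays. The lung mean of 8.51 ± 0.60 was 12-fold above the mean of the other 9 organs (limma, adjusted p = 2.60e-10, n = 4) and the spleen mean of 7.54 ± 1.10 was 5.68-fold above (adjusted p = 3.61e-07). Lung exceeded spleen by 0.97 (95% interval 0.08 to 1.86, limma adjusted p = 0.191), and spleen exceeded brain, the next organ, by 2.16 (1.93e-04). In brain CLDN5 had 5.41, 5.69, 4.73 and 5.7, in skeletal muscle 4.78, 6.52, 4.08 and 5.62, and in lymph node 4.8, 5.9, 3.86 and 4.75. The 3 organs overlapped, and the difference of brain from heart was 0.74 (95% interval −0.15 to 1.63, limma adjusted p = 0.25). Replicate 2 was the highest array and replicate 3 the lowest in skeletal muscle and lymph node alike.

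The second CLDN5 probeset had 8.05, 8.29, 7.89 and 6.74 in lung and 7.53, 8.35, 6.49 and 8.23 in spleen. The folds of 8.54 and 7.95 over the other organs stayed under the limit for enriched, and lung exceeded spleen by 0.09 (95% interval −0.89 to 1.08), a difference that changed sign without lung replicate 1 (−0.01), lung replicate 2 (−0.09) or spleen replicate 3 (−0.29). The 2 CLDN5 probesets had a Pearson r of 0.968 over the 39 arrays. Of 11 endothelium genes, 8 were called higher in lung, 3 in spleen, 2 in heart, 2 in kidney and 1 in pancreas. The shares of all probesets called higher in these organs were 7.26%, 5.38%, 7.47%, 7.41% and 13.4%. Their mean was 7.75, 7.11, 7.67 and 6.96 in lung, 6.28, 6.47, 6.53 and 6.57 in spleen, and 6.22 to 6.63 in heart, where CLDN5 averaged 4.64 ± 0.36. Brain had the lowest array of the list, at 4.86. CLDN5 and the endothelial list did not order the organs alike, and the part of endothelial content in the CLDN5 values was not tested. The most similar genes over 39 arrays were ANXA1 (r = 0.913), LYVE1 (0.866), a receptor of lymphatic and some sinusoidal endothelium, and RAMP2 (0.863), a receptor partner for adrenomedullin in vessels.

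**Figure D3:**
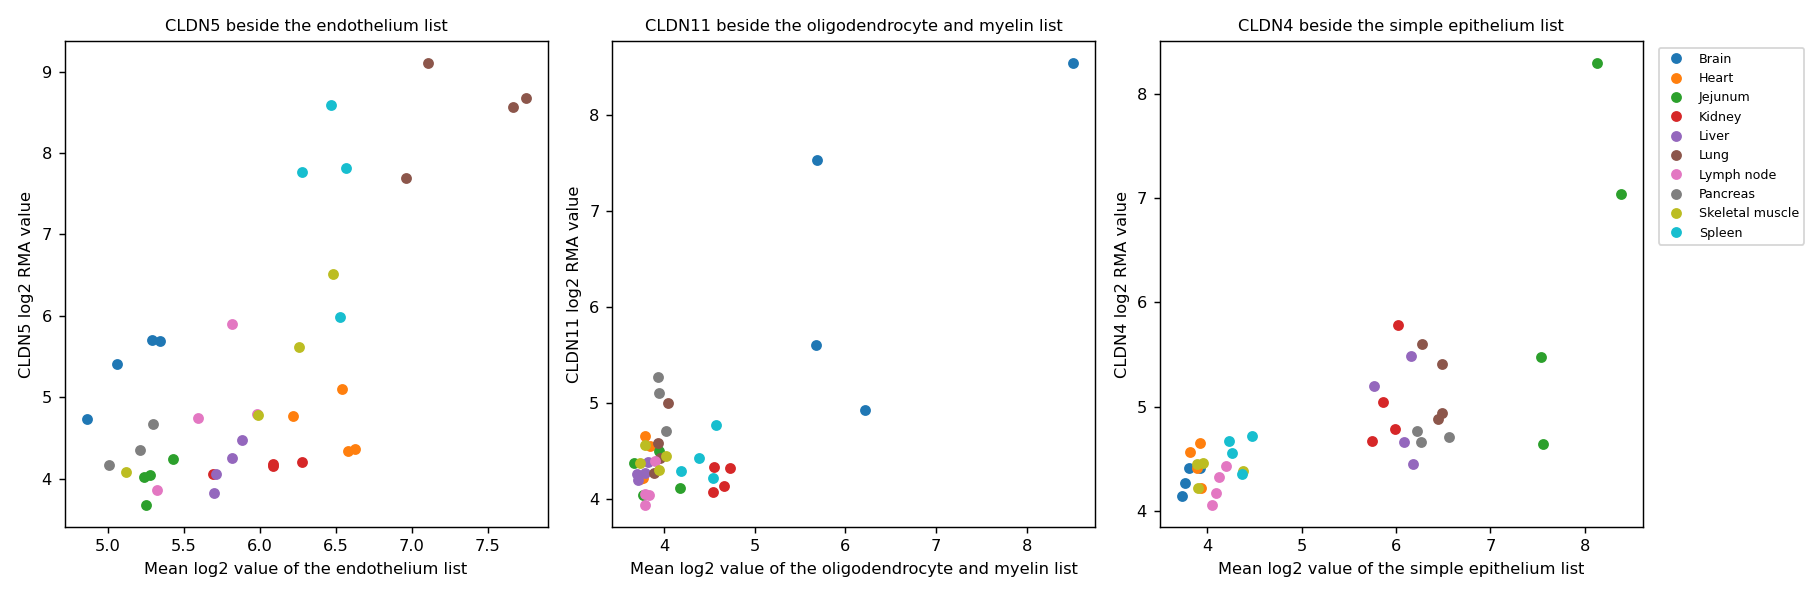
Log2 RMA value (vertical axis) of CLDN5, CLDN11 and CLDN4 on each of the 39 arrays against the mean log2 value (horizontal axis) of the endothelium, the oligodendrocyte and myelin, and the simple epithelium list, coloured by organ. Heart arrays hold endothelium list values of 6.22 to 6.63 with CLDN5 at 4.34 to 5.10, whereas spleen arrays hold 6.28 to 6.57 with CLDN5 at 5.98 to 8.59.

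CLDN10 was called higher in 4 organs, the most of any member. In human and mouse, its alternative first exons give a form that passes cations and a form that passes anions, and in kidney the forms lie in different tubule segments. Through the probeset with the highest mean, CLDN10 had 9.73, 10.63 and 10.26 in pancreas, 9.66, 9.95, 9.9 and 9.9 in kidney, 8.06, 7.88, 8.13 and 8.07 in heart, and 6.95, 7.76, 7.97 and 7.97 in liver. Pancreas and kidney arrays overlapped, both lay above all heart arrays, and heart and liver overlapped. In brain it had 5.72, 6.01, 4.9 and 5.78, and the means of the other 5 organs lay between 3.39 and 4.0. Against the mean of the other 9 organs the gene was 26.2-fold higher in pancreas (limma, adjusted p = 1.12e-20), 19.9-fold in kidney (1.61e-21), 4.91-fold in heart (4.99e-14) and 3.68-fold in liver (4.37e-12). Pancreas exceeded kidney by 0.36 (95% interval −0.08 to 0.79, limma adjusted p = 0.187) and heart exceeded liver by 0.37 (0.208). The first of these was called with an equal housekeeping median (3.5, limma adjusted p = 1.66e-12). That scaling moved the median of all probesets by 2.13 in pancreas and −1.01 in kidney. The steps that passed were kidney over heart (1.82, limma adjusted p = 7.56e-09), liver over brain (2.06; 2.75e-10) and brain over spleen (1.60; 8.36e-08).

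The second CLDN10 probeset gave a different order. It had 8.71, 8.78 and 9.1 in pancreas, 7.49, 6.65, 7.32 and 6.69 in heart, and 7.64, 7.3, 6.36 and 5.32 in kidney, with liver at 4.17, 4.25, 4.04 and 4.11. Every pancreas array lay above all others, and liver, the fourth organ by the first probeset, sat among the lowest. Liver was called higher by the first probeset (3.68-fold) and lower by the second (0.391-fold, limma adjusted p = 2.91e-06). By the second probeset liver differed little from jejunum (jejunum minus liver 0.07, 95% interval −0.49 to 0.62), whereas by the first it exceeded jejunum by 4.28 (3.87 to 4.68). Pancreas was 14.9-fold above the other organs by the second probeset (limma, adjusted p = 9.14e-15), heart 3.64-fold and kidney 2.71-fold (adjusted p = 0.00455 and 0.365 with an equal housekeeping median), and pancreas exceeded heart by 1.83 (7.72e-06). Kidney arrays spread widely by this probeset (6.65 ± 1.04, SD, n = 4) and narrowly by the first (9.85 ± 0.13). The third CLDN10 probeset stayed between 3.23 and 4.04 on all arrays and was not called (limma F test, adjusted p = 0.00732). Pearson's r over 39 arrays was 0.801 between the first probeset and the second, 0.596 between the first and the third, and 0.506 between the second and the third. Which transcripts each probeset reads is not given in the sources used here. CLDN10 remained at 3.49 to 3.82 by the first probeset in skeletal muscle, including the 3 arrays with raised acinar genes. The most similar genes over 39 arrays were MTARC2 (r = 0.85), CTH (0.83) and SRD5A1 (0.828).

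**Figure D4:**
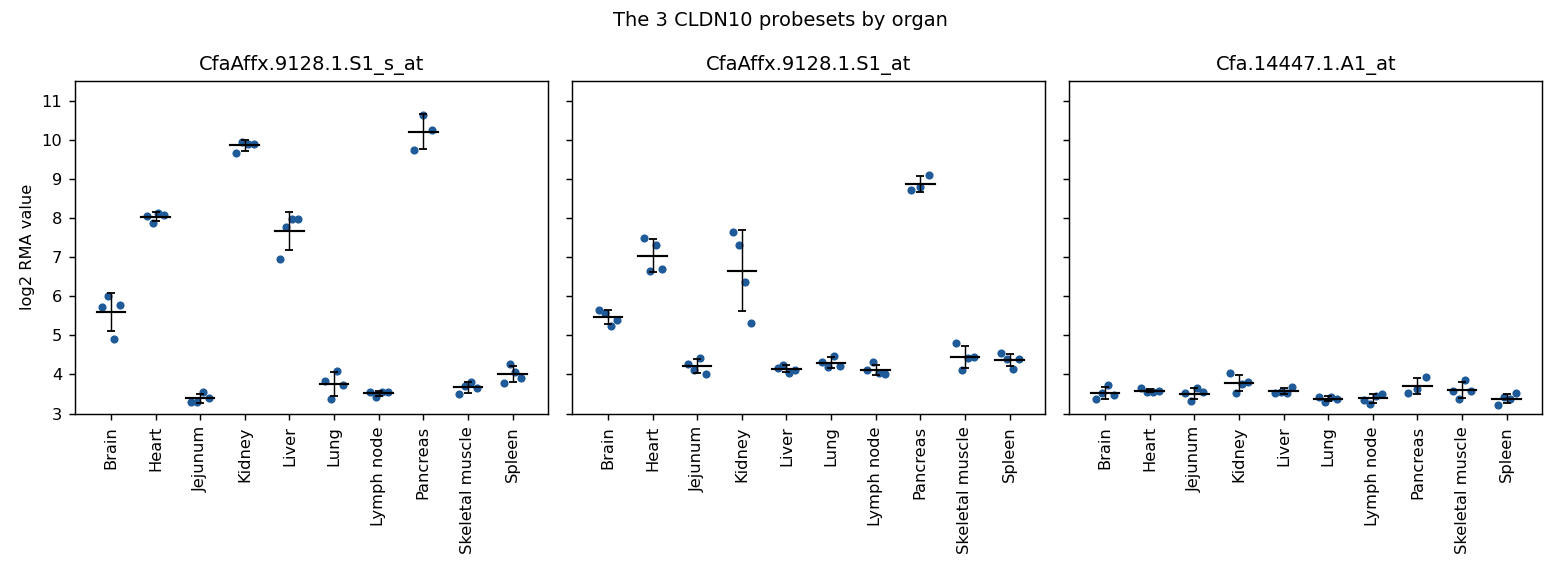
Log2 RMA value (vertical axis) of the 3 CLDN10 probesets on each array by organ (horizontal axis), with organ means and SD (n = 4, pancreas n = 3). Liver averages 7.66 by the first probeset and 4.14 by the second, and the third lies below 4.05 in every organ.

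CLDN2 and CLDN16 are claudins of the nephron, and both were highest in kidney. CLDN2 forms a pore for cations and water in the proximal tubule. It had 5.02, 5.29, 5.32 and 5.63 in kidney (5.31 ± 0.25, SD, n = 4), and every array of the other organs lay between 3.55 and 4.43. The groups did not overlap. Kidney was 2.68-fold above the mean of the other 9 organs (3.89, limma adjusted p = 5.99e-13) and 1.25 above jejunum, ranked second (95% interval 0.97 to 1.53, adjusted p = 1e-08). With the arrays set to an equal housekeeping median the kidney excess of CLDN2 was 0.24 (limma, adjusted p = 0.287). That scaling moved the median of all probesets by −1.01 in kidney. The proximal tubule list averaged 9.2, 9.06, 9.52 and 9.65 on the same kidney arrays, and the collecting duct and distal tubule list 6.92, 7.05, 7.07 and 7.92. The part of either in the CLDN2 values was not tested. The most similar genes to CLDN2 were SLC17A3 (r = 0.933), a phosphate and urate transporter, ATP6V0D2 (0.932), which is on the collecting duct and distal tubule list, and RHCG (0.927), an ammonia transporter of the collecting duct.

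CLDN16 takes part in magnesium and calcium reabsorption between cells of the thick ascending limb. It had 3.93, 5.13, 4.38 and 4.07 in kidney (4.38 ± 0.53, SD, n = 4), and the other organs lay between 3.22 and 3.71. Each kidney array was above every other array, though replicate 1 by little. Kidney was 1.93-fold above the other organs (3.43, limma adjusted p = 3.11e-08), and it exceeded pancreas by 0.84 (95% interval 0.51 to 1.17, adjusted p = 8.17e-05), a call that was lost without pancreas replicate 3 (0.78, limma adjusted p = 0.00123). With an equal housekeeping median the difference of CLDN16 in kidney from the other organs was −0.24 (limma, adjusted p = 0.282). On the same kidney arrays SLC12A1, the sodium-potassium-chloride cotransporter of that segment, had 7.94, 8.59, 7.51 and 8.05, and UMOD, which encodes uromodulin, had 13.72, 13.49, 13.15 and 13.4. Replicate 2 held the highest array of CLDN16 and of SLC12A1. CLDN2 and CLDN16 had a Pearson r of 0.805 over 39 arrays. The most similar genes to CLDN16 were SLC6A18 (r = 0.938), NT5C1B (0.896) and TMEM174 (0.891).

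CLDN11 was highest in brain and uneven there. It had 8.54, 7.53, 5.61 and 4.93 in brain (6.65 ± 1.68, SD, n = 4), and 5.1, 5.27 and 4.71 in pancreas. Brain replicate 4 lay below 2 of the 3 pancreas arrays and below the highest lung array (5.0), and the other brain arrays lay above all arrays of other organs. In the other organs the SD was 0.08 to 0.31. The limma variance is shared by all organs, so its p does not measure the spread in brain. Brain was 4.73-fold above the mean of the other 9 organs (4.41, limma adjusted p = 1.77e-07) and was called above each other organ except pancreas, which it exceeded by 1.63 (95% interval 0.76 to 2.50, adjusted p = 0.00209). That difference was 1.0 without brain replicate 1, when brain was 1.61 above the mean of the other organs in place of 2.24. It was called without brain replicate 3 (1.98, limma adjusted p = 3.32e-04), without brain replicate 4 (2.21, 7.58e-06), and when the 6 arrays with raised acinar genes were left out (1.98, 9.57e-04), and it was −0.75 with an equal housekeeping median. All 7 measured genes of the myelin list were called higher in brain, beside 11.2% of all probesets, and their mean on the 4 brain arrays was 8.51, 5.69, 5.68 and 6.21. MBP had 9.48, 7.25, 6.69 and 6.72 and MOG 7.87, 4.62, 4.83 and 5.83. Replicate 1 was highest for all of these. Replicate 2, second for CLDN11, was second for MBP and MAG (8.76, 7.07, 6.16 and 6.65) as well. It was not second for the list mean, MOG, CNP (9.07, 5.45, 6.09 and 6.41) or MAL (9.41, 6.12, 5.81 and 7.47). The part of white matter content was not tested. The neuron list was even, at 10.51, 11, 10.81 and 10.91. The most similar genes to CLDN11 over 39 arrays were CDH9 (r = 0.899), UGT8 (0.897), an enzyme of myelin lipid synthesis that is on the myelin list, and C1QL1 (0.895).

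**Figure D5:**
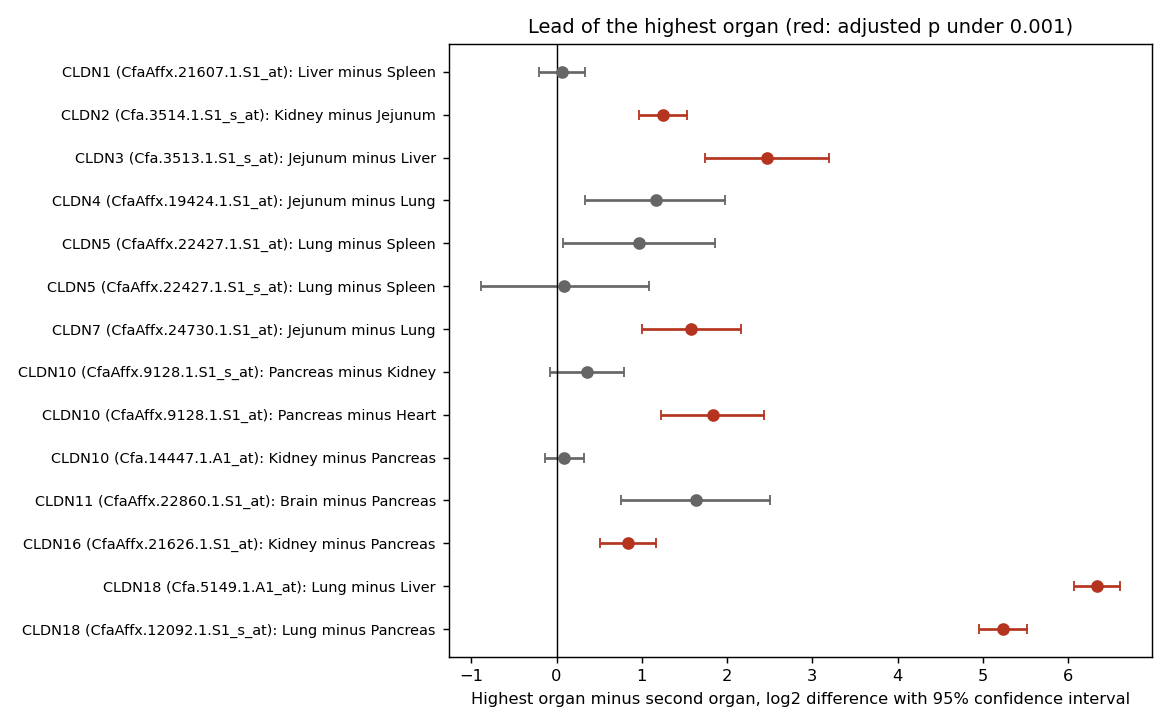
Difference on the log2 scale (horizontal axis) between the organ with the highest mean and the organ ranked second for each of the 14 claudin probesets, with limma's 95% confidence interval as bars. Red points passed an adjusted p of 0.001 (7 of 14); the intervals of CLDN1, of the second CLDN5 probeset and of the first and the third CLDN10 probesets include 0.

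CLDN1, a claudin of skin and liver epithelium, did not differ detectably among organs. Its values lay between 3.43 and 4.37 on all 39 arrays, its mean over them (3.69) was below the array medians, and the organ means lay between 3.58 and 3.89 (limma F test, adjusted p = 0.223). Liver had the highest mean (3.89 ± 0.05) and exceeded spleen by 0.06 (95% interval −0.21 to 0.33) and heart, the lowest, by 0.31 (0.04 to 0.58, limma adjusted p = 0.0958). Its mean stood at percentile 29.1 of all probesets and the range of its organ means at percentile 13.4. A difference among organs was not detectable at this signal, which does not show that there was none. CLDN1 lies beside CLDN16 with no protein-coding gene between them in the same assembly. The most similar genes were NTNG2 (r = 0.79), DCDC1 (0.789) and DCST2 (0.74).

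Over the same 39 arrays the genes most similar to CLDN3 were EPHA1 (r = 0.928), PRRG2 (0.899) and TJP3 (0.882), which encodes a tight junction scaffold, and to CLDN7 were MGAT4A (0.937), EHF (0.936), an epithelial transcription factor, and KRTCAP3 (0.932). Those of CLDN4 were CCL24 (0.858), FUT2 (0.852), a fucosyltransferase of mucosal surfaces, and CA13 (0.847). Among the members themselves the lowest r was −0.45, between CLDN5 and CLDN10. All these r are over 39 arrays that fall into 10 organs, so they mostly describe shared organs.

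Outside the set, 10 of 16 other listed claudin and claudin domain genes were measured and 5 were called by limma's F test, beside 54.6% of all probesets. CLDN8, which seals the collecting duct and distal tubule, had 6.76, 8.04, 7.14 and 9.31 in kidney (7.81 ± 1.14, SD, n = 4) and was 18.1-fold above the other organs (limma, adjusted p = 9.95e-18). CLDN19, the partner of CLDN16 in the thick ascending limb, had 7.52, 8.39 and 8.3 in pancreas and 6.33, 6.28, 4.67 and 5.86 in kidney. It was 13.7-fold higher in pancreas (limma, adjusted p = 1.75e-16) and 2.37-fold in kidney (6.39e-07), and pancreas exceeded kidney by 2.28 (95% interval 1.78 to 2.78). CLDN19 was thus highest in another organ than CLDN16. CLDN14 in liver (1.23-fold), CLDN17 in pancreas (1.36-fold) and CLDND2 in lymph node (1.45-fold) were called with small folds, and CLDN6, CLDN12, CLDN20, CLDN24 and CLDND1 were not called by the F test.

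Of 37 other listed tight junction genes, 32 were measured and 20 were called by the F test, beside 54.6% of all probesets. Called higher were 9 of 32 in kidney, 9 in lung and 8 in jejunum, beside 7.41%, 7.26% and 6.12% of all probesets higher there. Pancreas and liver had 5 each, beside 13.4% and 6.72%, and brain and heart 4 each, beside 11.2% and 7.47%. Lymph node had 0 higher (0 at an unadjusted p of 0.05) and spleen 0 (1 at that p), beside 9.95% and 5.38%. Called lower were 12 in lymph node, 9 in brain, 8 in skeletal muscle and 1 in jejunum, beside 6.93%, 7.74%, 8.14% and 3.85% of all probesets lower there. Heart had 7 lower, spleen 5 and pancreas 1, for which the share of all probesets is not given here. The median difference over the list was 0.11 in jejunum, 0.16 in kidney and 0.10 in lung, against −0.04, −0.07 and −0.08 over all probesets, and −0.32 in lymph node against −0.03. It was highest in pancreas, at 0.20 against 0.01. The largest folds were those of CGN, the scaffold cingulin, in jejunum (9.75 ± 0.23, SD; 21.0-fold, limma adjusted p = 4.20e-17), OCLN, the strand protein occludin, in lung (8.79 ± 0.18; 12.4-fold; 2.58e-16), ILDR2 in lung (7.74 ± 0.75; 11-fold; 5.86e-14) and LSR, a protein of junctions where 3 cells meet, in jejunum (7.57 ± 0.36; 7.26-fold; 1.23e-13). YBX3, a nucleic acid binding protein that also sits at junctions, followed in skeletal muscle (6.73-fold, limma adjusted p = 3.90e-12), and CXADR, a junction adhesion protein, in lung (5.68-fold; 3.32e-07). Jejunum, lung and kidney, the organs with most higher calls among the claudins, held most among these genes as well.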

How the data were processed

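Normal organs of 4 dogs were measured on Affymetrix Canine 2.0 arrays. The deposited values are log2 RMA intensities, made by the authors in Partek, which adjusted for probe sequence and GC content, corrected the background by RMA, quantile normalized the arrays and summarised probes by median polish. They left out 1 outlying pancreas array and processed the remaining 39 again. The values, between 2.61 and 14.74 with 0 missing, were used as deposited. Array replicates and signal over background limit the precision. Gene names came from the platform annotation, in which 29254 probesets had 1 symbol, 439 several and 13167 none.

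A mean per organ was fitted to all 42860 probesets with limma 3.58.1 in R 4.3.3, with a moderated F test, contrasts of an organ with the mean of the other 9, and all 45 organ pairs. P-values were adjusted by Benjamini-Hochberg over all probesets within each test and called at 0.001. Each probeset had 1 variance shared by all organs, so a p does not measure the spread within an uneven organ. This holds for CLDN4 in jejunum, CLDN11 in brain and CLDN16 in kidney. Scan date, a random factor in the study's model, is not in the labels used here. Nothing in the labels ties arrays of the same replicate number to 1 dog, and arrays of 1 dog are not independent.

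All members were named with every probeset, with each measured gene of the list of other claudins, the 6 largest folds of the other tight junction genes, and the 3 genes of highest Pearson r with each member. Members and lists were chosen with earlier results of these data known. Alternatives were a variance trend, ordinary variance, the replicate number as a block, housekeeping and all-probeset scaling, a filter on dim probesets, the mean of a gene's probesets, the median of the other organs, an FDR of 0.05 and leaving out each array. Leaving out arrays with raised acinar or hepatocyte genes was added after seeing the data.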

Additional observations from a re-analysis of the deposited data

Results flagged for a closer look

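In 6 of 126 sets of 4 arrays from 1 organ, the highest or lowest array stood apart from the other 3, its gap to the nearest taking a larger part of the whole range than Dixon's critical value at 95%, which chance gives in about 1 in 20 sets. For CLDN1, replicate 3 was the high array in brain (3.87, gap 0.856 of the range), lymph node (4.04, 0.918) and spleen (4.37, 0.842). For CLDN10, by the probeset with the highest mean, replicate 1 was low in kidney (9.66, 0.851) and replicate 2 was low in lymph node (3.43, 0.894), within ranges of only 0.29 and 0.13. For CLDN16, replicate 1 was high in skeletal muscle (3.71, 0.837).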

How the results depend on the processing

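Over the 14 probesets, 12 F test calls, 21 higher and 35 lower contrasts, 8 enriched, 3 selective and 7 leads of the highest organ stayed within 1.5 times under the alternatives, except that 1 selective call was left with an equal housekeeping median. That scaling moved the median of all probesets by between −1.01 in kidney and 2.13 in pancreas. Of the 13 housekeeping genes, 12 were called by the F test. Most higher calls were in lymph node (6), spleen (4), kidney and skeletal muscle (3 each), and most lower calls in brain and pancreas (4 each). In lymph node and spleen the shift was 0.2 and 0.37. The scaling can carry organ differences of those genes, and their part in the results was not tested. It turned CLDN1 liver against the others (−0.29) and against spleen (−0.71), the third CLDN10 probeset in kidney (−0.91) and against pancreas (−3.05), CLDN11 brain against pancreas (−0.75), and CLDN16 kidney against the others (−0.24) and against pancreas (−2.3). Of 72 single results, 18 lost their call under it, 1 gained one and 46 kept direction and side of the threshold. Without arrays with raised hepatocyte genes, lung minus spleen of the second CLDN5 probeset was −0.14. The cause was not tested. With each array left out, F calls ranged from 11 to 12, higher calls from 20 to 22, lower calls from 32 to 37, enriched from 8 to 9, selective stayed at 3 and leads ranged from 6 to 8. In these fits CLDN1 liver minus spleen lay between −0.02 and 0.24 and lung minus spleen of the second CLDN5 probeset between −0.29 and 0.43. With the replicate number as a block the counts were 12, 21, 40, 8, 3 and 7, so lower contrasts numbered 40 against 35, while the 72 single results followed here kept their side of the threshold. Same-numbered arrays had a mean correlation of 0.127 between deviations from organ means (101 of 171 pairs over 0.1), against −0.0421 for different numbers, and 30 of 39 arrays correlated best with their own number. This is a hint from the data that numbers are shared between organs, which the labels do not state. With the mean of all CLDN10 probesets, liver minus the others was 0.19 (limma, adjusted p = 0.157). A filter on dim probesets kept 11 of the 14, and low signal limits CLDN1, CLDN16 and the third CLDN10 probeset.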
